A study of Homo sapiens with 9 samples.

Results

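The KRAB zinc finger gene clusters of human chromosome 19 were examined in 6 lists of chromatin regions from LNCaP, an established human prostate cancer cell line. Members were the listed regions whose midpoint lay in hg19 chr19:19.8–24.4 Mb (cluster 1), 36.5–38.5 Mb (cluster 2), 52.3–54.0 Mb (cluster 3) or 56.3–59.1 Mb (cluster 4). Position alone decided membership, and 1182 of 335291 regions qualified. They comprised 27 of 9493 EZH2 peaks in shEZH2 cells and 128 of 23060 in control cells. There were 322 of 59233 H3K27ac regions in shEZH2 cells and 395 of 58134 in control cells. H3K27me3 gave 168 of 99251 regions in shEZH2 cells and 142 of 86120 in control cells. The clusters cover 11.1 Mb, 19.8% of the chromosome as spanned by listed regions, and the remaining 44.9 Mb served for comparison.

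The shEZH2 cells had been infected with a lentivirus carrying a short hairpin against EZH2 and the control cells with plko.1, the knockdown vector. Within each target the labels give the same antibody for both groups. Chromatin immunoprecipitation with sequencing was done once per target and group, so no difference between shEZH2 and control had a replicate check and no test of the conditions was possible. Libraries held between 13331155 and 33289172 tags. A region's strength is given in normalised tags, the tags in it after the authors' scaling of each library to 10000000. Intervals are 95% and cover counting error over regions, which are not replicates, and no input library was used in calling.

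KRAB zinc finger proteins bind DNA, in many cases at transposable elements, through tandem zinc fingers. Their KRAB domain recruits the corepressor TRIM28. The genes arose by repeated duplication and stand side by side in long clusters, in which the gene bodies are known for H3K9 trimethylation, a mark that was not measured here, while promoters can be active. Polycomb repressive complex 2, with EZH2 as its enzyme, trimethylates lysine 27 of histone H3 on silenced chromatin (H3K27me3). Acetylation of that lysine (H3K27ac) is found at active promoters and enhancers. By its title the study asked whether EZH2 also activates genes apart from Polycomb and methylation.

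That the windows hold zinc finger genes could not be checked by position, because no hg19 annotation was used here. By symbol alone, RefSeq (GRCh38.p14) places 265 of its 569 protein-coding zinc finger genes, 46.6%, on chromosome 19, where they are 18.3% of the 1451 protein-coding genes. Regions are therefore named by hg19 coordinates, no gene is assigned to them, and LNCaP marker genes were not checked. No hg19 sequence was used here, so none is printed.

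EZH2 peaks were sparser in the clusters than in the rest of chromosome 19, and the shortfall differed by the mark beneath them. In shEZH2 cells the clusters held 2.43 EZH2 peaks per Mb (1.60–3.54), against 9.03 (8.17–9.95) in the rest, a ratio of 0.269 (0.175–0.398). In control cells they held 11.5 (9.62–13.7), against 23 (21.6–24.4) per Mb, a ratio of 0.502 (0.415–0.604). Control EZH2 peaks on a control H3K27ac region and on no H3K27me3 region stood at 7.30 per Mb in the clusters and 8.45 per Mb in the rest, and the interval of their ratio, 0.864 (0.671–1.10), includes 1. Control EZH2 peaks on H3K27me3 alone stood at 1.53 per Mb in the clusters and 9.54 per Mb in the rest, a ratio of 0.161 (0.0926–0.260). Peaks on neither mark lay between, at 2.70 per Mb in the clusters and 4.75 in the rest (0.569, 0.375–0.837).

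The marks themselves followed the same order. H3K27me3 regions were sparse: 15.1 per Mb in the clusters and 53.6 in the rest in shEZH2 cells (0.282, 0.240–0.330), and 12.8 and 75.3 per Mb in control cells (0.170, 0.143–0.201). H3K27ac regions were closer in number, at 29.0 per Mb in the clusters and 42.0 in the rest in shEZH2 cells (0.691, 0.612–0.778). In control cells H3K27ac stood at 35.6 per Mb in the clusters and 46.3 in the rest (0.769, 0.689–0.857). Chromosome 19 outside the clusters is itself dense: the other autosomes held 3.27 EZH2 peaks per Mb in shEZH2 cells and 8.05 in control cells. Against these autosomes the control clusters had more EZH2 peaks (1.43-fold) and more H3K27ac regions (1.77-fold), while H3K27me3 regions were sparser in the clusters (0.417-fold). By listed tags the order was the reverse: control H3K27me3 had 1016.5 normalised tags per Mb in the clusters and 481.7 on the other autosomes. Without regions on 2 wide H3K27me3 regions of cluster 2, described below, the clusters had 126.5. For EZH2 in shEZH2 cells the ratio to the other autosomes was 0.745 (0.490–1.08). Single clusters differed from these pooled values: control EZH2 in clusters 1 and 3 (4.13 and 5.29 per Mb) lay below the autosomes' 8.05, and control H3K27me3 in cluster 4 stood at 35.4 per Mb, against 30.7.

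The 4 clusters were unlike each other. Cluster 1, the one nearest the centromere, had the lowest EZH2 density, with 3 peaks in shEZH2 cells and 19 in control cells over 4.6 Mb, or 0.652 and 4.13 per Mb. Cluster 4, at the end of the long arm, had the highest, 4.64 per Mb in shEZH2 cells and 22.5 per Mb (17.3–28.8) in control cells, and the control value was close to that of the rest of the chromosome. Cluster 2 held 3.5 EZH2 peaks per Mb in shEZH2 cells and 18.5 in control cells, and cluster 3 held 2.35 and 5.29. H3K27ac in control cells ran from 18.0 regions per Mb in cluster 1 over 37.0 and 48.2 in clusters 2 and 3 to 55.7 in cluster 4. Without cluster 1 the H3K27ac density ratio was 0.949 in shEZH2 cells and 1.04 (0.918–1.17) in control cells, so the lower H3K27ac density of the clusters as a whole rested on cluster 1. The H3K27me3 ratio without cluster 1 was 0.353 in shEZH2 cells and 0.274 in control cells, and without cluster 4 it was 0.187 and 0.0688. EZH2 without cluster 1 gave 0.409 in shEZH2 cells and 0.730 in control cells.

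**Figure D1:**
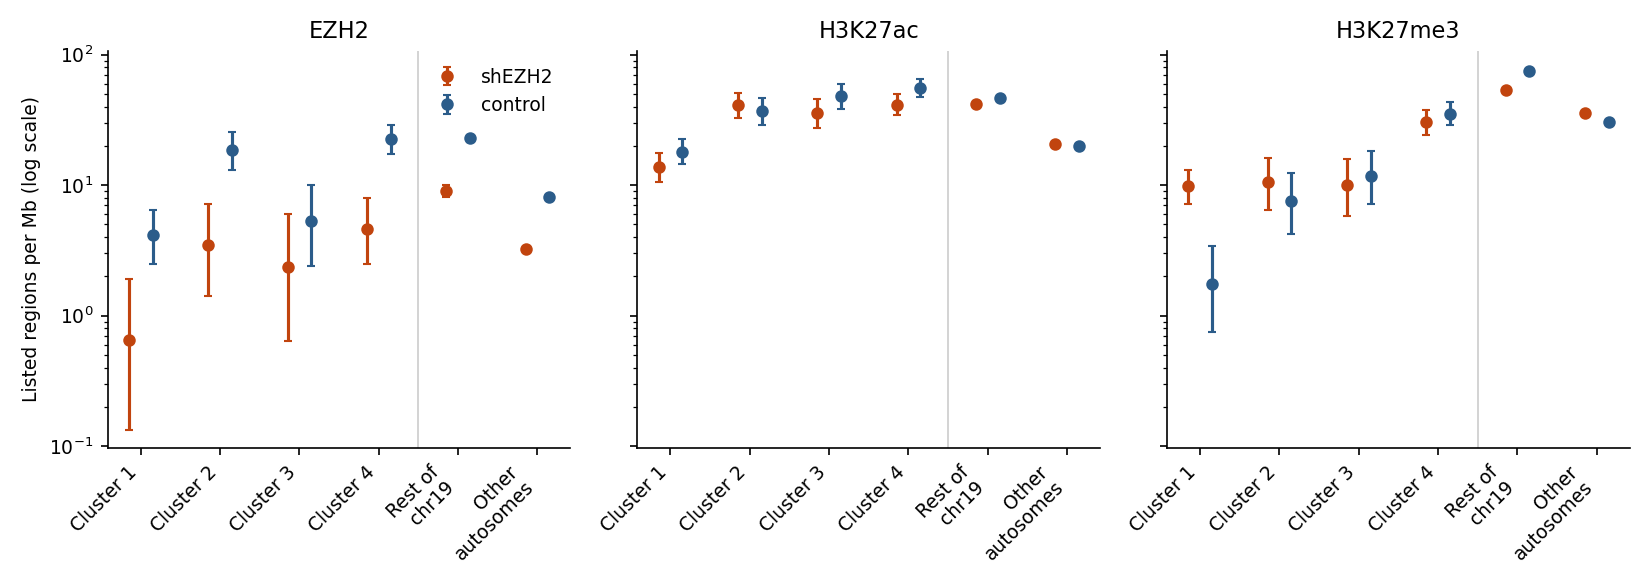
Listed regions per Mb (log axis) for EZH2, H3K27ac and H3K27me3 in each of the 4 clusters, the rest of chromosome 19 and the other autosomes; points are shEZH2 (left, orange) and control (right, blue) lists, and bars are exact 95% Poisson intervals. H3K27me3 in all 4 clusters lies below the rest of the chromosome, while H3K27ac does so clearly only in cluster 1, and cluster 4 has 22.5 control EZH2 peaks per Mb against 23 in the rest.

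In windows of 100 kb, the usual state of the clusters was H3K27ac without H3K27me3. Of 111 windows, 72 (64.9%) held a control H3K27ac region and no control H3K27me3 region, against 162 of 448 (36.2%) in the rest. Both marks were listed in 19 cluster windows (17.1%) and in 196 windows of the rest (43.8%). H3K27me3 without H3K27ac occurred in 5 cluster windows (4.5%) and in 79 of the rest (17.6%). Of the 15 cluster windows with neither mark, 14 lay in cluster 1. Windows were ranked by the EZH2 peaks of both lists added, in which a place listed in both counts in each. The window at 59.0–59.1 Mb came first with 2 in shEZH2 cells and 7 in control cells, and 58.8–58.9 Mb next with 0 and 8, the highest number for control cells alone. Both windows were acetylated, with 8 H3K27ac regions in shEZH2 cells and 18 in control cells at 59.0–59.1 Mb and 9 in each at 58.8–58.9 Mb. No H3K27me3 region was listed at 58.8–58.9 Mb in either group. The next place was shared by 3 windows with a sum of 6 EZH2 peaks, of unlike marks. The window at 36.6–36.7 Mb had 5 H3K27ac regions in shEZH2 cells and 8 in control cells and no H3K27me3, whereas that at 56.5–56.6 Mb had 13 H3K27me3 regions in shEZH2 cells and 24 in control cells. The window at 58.5–58.6 Mb had 11 H3K27me3 regions in each list.

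Most EZH2 peaks of the clusters lay on acetylated chromatin. Of the 128 control peaks, 81 (63.3%, 54.3–71.6) overlapped a control H3K27ac region, against 389 of 1030 (37.8%) in the rest, a difference of 25.5 percentage points (16.4–33.9). H3K27me3 underlay 17 (13.3%, 7.93–20.4), against 438 (42.5%), a difference of -29.2 points (-34.9 to -21.7). No peak of the clusters was on both marks, which allows a share of up to 2.84%, and 30 (23.4%) were on neither, against 213 (20.7%) in the rest. The 27 peaks of shEZH2 cells, were set on the same control mark lists: 15 (55.6%, 35.3–74.5) were on H3K27ac, 6 (22.2%, 8.62–42.3) on H3K27me3 and 6 on neither. In the rest, 105 of the 405 shEZH2 peaks (25.9%) were on H3K27ac alone and 231 (57.0%) on H3K27me3 alone.

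**Figure D2:**
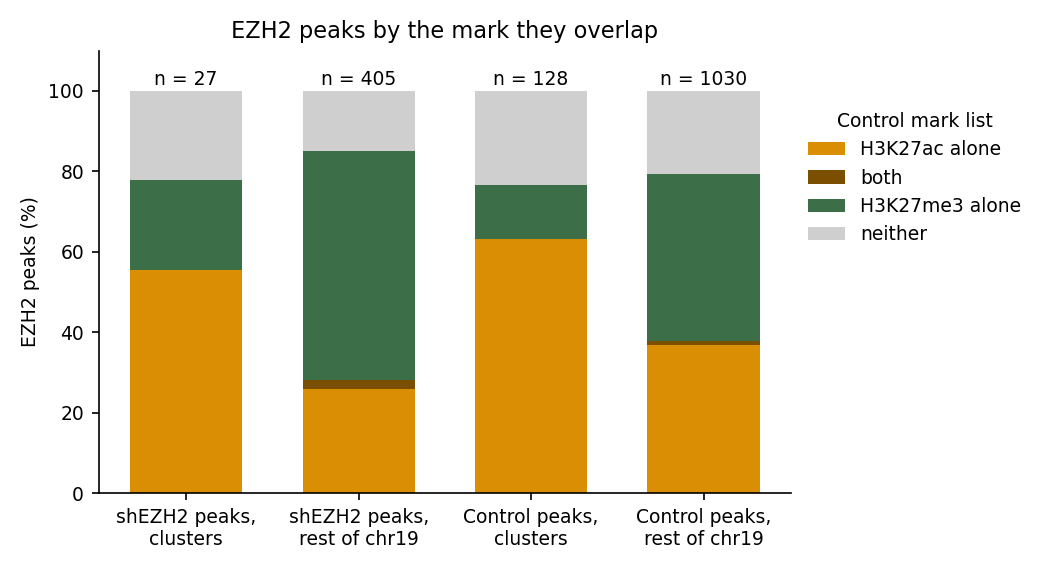
Share of EZH2 peaks (%) by the control mark region they overlap, for shEZH2 and then control peaks, each in the clusters and in the rest of chromosome 19; n is the number of peaks. H3K27ac takes 55.6% and 63.3% of the cluster peaks, and H3K27me3 22.2% and 13.3%.

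Over the 4 clusters together, the share of acetylated regions that carried EZH2 was not distinguishable from that in the rest, but single clusters lay on either side of it. In control cells 75 of 395 H3K27ac regions of the clusters (19%) held an EZH2 peak, against 357 of 2076 (17.2%) in the rest, a difference of 1.79 points (-2.15 to 6.23). The share was 10.8% (5.08–19.6) in cluster 1, 29.7% (19.7–41.5) in cluster 2, 7.32% (2.73–15.2) in cluster 3 and 24.4% (17.9–31.9) in cluster 4. The share went up with acetylation in both: it was 1.35% in the clusters and 2.37% in the rest under 20 normalised tags, 14.3% and 12.1% from 20 to 100 tags, and 39.6% (31.7–47.9) and 41.1% (37.3–45.1) at 100 tags or more. At 100 tags or more the clusters again differed, from 12% (2.55–31.2) of 25 regions in cluster 3 to 54.1% (36.9–70.5) of 37 in cluster 2. An H3K27me3 region of control cells held EZH2 in 17 of 142 cases in the clusters (12%) and in 394 of 3378 in the rest (11.7%; difference 0.308 points, -4.20 to 6.76). The pooled share joined unlike clusters: 4 of 8 regions (15.7–84.3%) in cluster 1, 3 of 15 (4.33–48.1%) in cluster 2, 0 of 20 (0–16.8%) in cluster 3 and 10 of 99 (4.95–17.8%) in cluster 4. In shEZH2 cells 14 of 322 H3K27ac regions of the clusters (4.35%) held a shEZH2 EZH2 peak, against 120 of 1883 in the rest (6.37%; difference -2.02, -4.14 to 0.970).

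**Figure D3:**
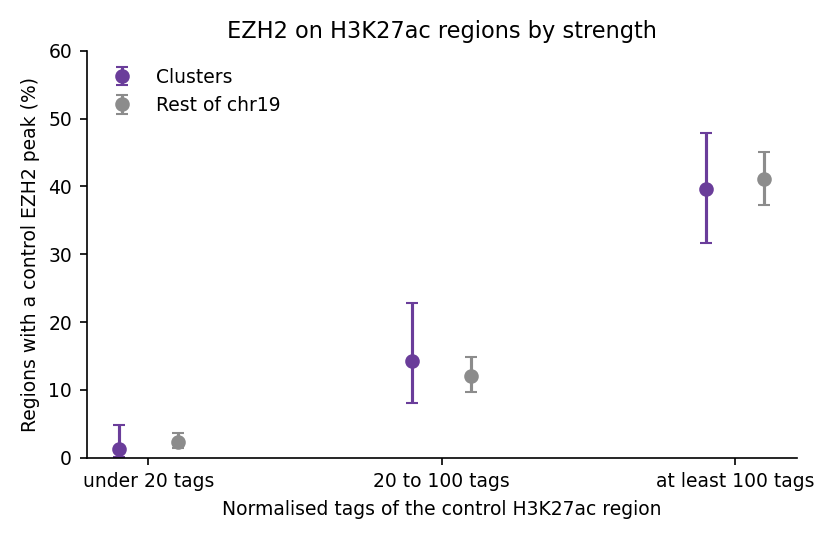
Control H3K27ac regions with a control EZH2 peak (%) by the region's normalised tags, in the clusters (left, purple) and the rest of chromosome 19 (right, grey), with exact 95% binomial intervals. The share goes up with tags in both, to 39.6% and 41.1%, and the intervals overlap in each class.

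The H3K27ac regions of the clusters were fewer, with a higher median of tags over the 4 clusters together. Their median was 79.4 normalised tags (59.5–103.3) in shEZH2 cells, against 45.1 (40.6–51.9) in the rest, and 53.9 (33.3–70.0) in control cells, against 35.0 (31.0–39.6). Regions of 100 tags or more made up 44.7% of those in the clusters and 35.5% of those in the rest in shEZH2 cells (difference 9.19 points, 3.42–15.1), and 37.7% and 30.4% in control cells (7.28, 2.22–12.5). In control cells clusters 2 and 4 had the larger shares, 50% and 43.6%, while cluster 3 had 30.5% and cluster 1 had 22.9%, with a median of 21.2 tags in cluster 1. All 5 H3K27ac regions with most tags in each list lay in cluster 4. In shEZH2 cells the first was 56613466–56633939, 20473 bp wide with 1511.6 tags, and a control EZH2 peak of 8.25 tags lay in it. The control H3K27ac region that shared most bp with it, 56621827–56624089, was 2262 bp wide with 168.6 tags. These tags cover unlike lengths and are not a measure of change. In control cells the first was 58896854–58899659 with 956.0 tags, or 340.8 per kb. The same place held 836.1 tags in a wider region of shEZH2 cells, and no EZH2 peak in either list. The second of the control list, 59068164–59071912 with 863.1 tags, did carry an EZH2 peak, of 9 tags, in control cells alone.

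EZH2 peaks were weak everywhere in the clusters. They ranged from 5.51 to 14.5 normalised tags in shEZH2 cells (median 7.58) and from 6 to 19.5 in control cells (median 9). The file headers give call thresholds of 6.89 normalised tags in shEZH2 cells and 6.75 in control cells, and some deposited values lie a little below them. In the rest of the chromosome the medians, 8.96 in shEZH2 cells and 9.75 in control cells, were little higher, but single peaks reached 1223.6 and 1279.0 tags. On H3K27ac the cluster peaks of control cells stood out more from their surroundings than those of the rest, but not more than those of the other autosomes. The authors' fold over the surrounding 10 kb had a median of 10.5 (9.39–11.8) in the clusters, 8.44 (7.89–8.88) in the rest and 10.2 (10–10.3) on the other autosomes. On H3K27me3 the medians were 6.10 (5.01–8.11) in the clusters and 6.07 (5.80–6.24) in the rest. EZH2 peaks on H3K27ac lay near the middle of the acetylated region, a median of 184.5 bp from its centre in the clusters and 252 bp in the rest. A neighbouring EZH2 peak within 10 kb was present for 49 of 128 control peaks of the clusters (38.3%, 29.8–47.3) and for 524 of 1030 in the rest (50.9%, 47.8–54.0).

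The strongest control peaks of the clusters had unlike marks. The peak at 19887282–19887464 in cluster 1 had 6.89 tags in shEZH2 cells and 19.5 (12.7–28.6) in control cells, and lay in an H3K27ac region of 176.3 tags in shEZH2 cells and 169.2 in control cells. The shEZH2 value lay below the interval of the control value, but the peak was picked for its high control tags, which favours a lower value in the other list. The next, at 57154824–57155006 in cluster 4, had 6.89 tags in shEZH2 cells and 18.8 (12.1–27.7) in control cells and lay on H3K27me3, with 45 tags in shEZH2 cells and 26.7 in control cells. At 37063953–37064135 in cluster 2, a control peak of 15 tags (9.16–23.2) had no shEZH2 peak, on H3K27ac of 307.5 tags in shEZH2 cells and 255.8 in control cells. The peak at 56652348–56652530 had the same 15 tags in control cells alone. It lay on H3K27ac of 593.5 tags over 8583 bp in shEZH2 cells and 127.9 tags over 1093 bp in control cells. At each of these places the shEZH2 mark region was the wider one, so the mark tags of the groups are not a measure of change. The peak at 56539008–56539190 had 7.58 tags in shEZH2 cells and 15 in control cells, on H3K27me3. Among shEZH2 peaks the strongest was 59025368–59025518, with 14.5 tags (8.96–22.1) in shEZH2 cells and 13.5 in control cells, in acetylated chromatin of cluster 4. It was followed by 3 peaks of 11.7 tags. Of these, 37464320–37464470 and 56879474–56879624 lay on H3K27ac in both lists. The peak at 58555847–58555997 lay in a wide H3K27me3 region of shEZH2 cells, of 158.5 tags over 9683 bp. No control H3K27me3 region was listed at the peak itself.

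**Figure D4:**
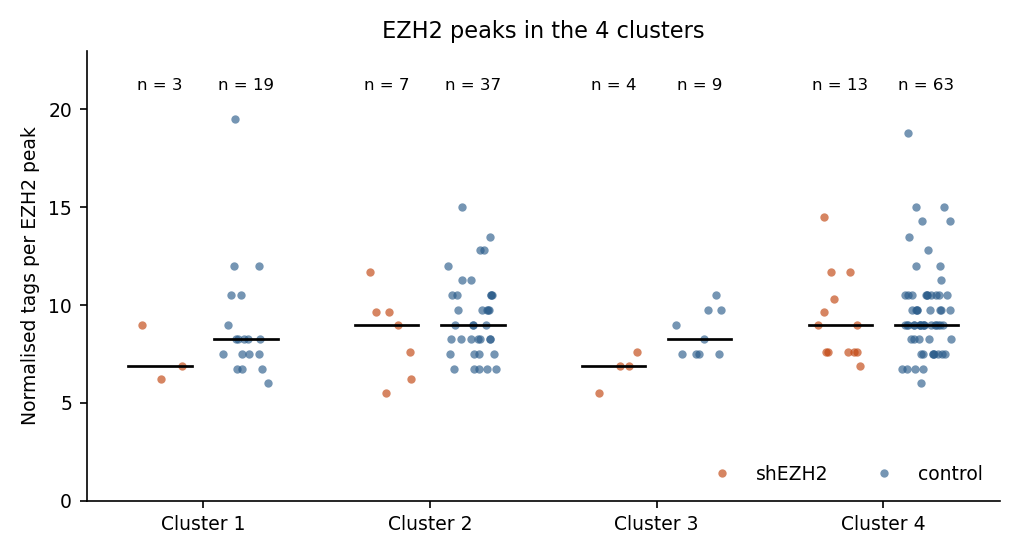
Normalised tags of each EZH2 peak in the 4 clusters, shEZH2 (left, orange) and control (right, blue); each point is 1 peak, lines are medians and n is the number of peaks. shEZH2 peaks number 3, 7, 4 and 13 and control peaks 19, 37, 9 and 63, and no peak exceeds 19.5 tags.

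Fewer EZH2 peaks were listed in shEZH2 cells than in control cells in each of the 4 clusters. Per kb of call window, the threshold was 45.6 normalised tags in shEZH2 cells and 36.9 in control cells. Control peaks of the clusters had a median of 49.2 per kb, not far above either. The clusters held 27 peaks in shEZH2 cells and 128 in control cells, a ratio of 0.211 (0.134–0.321), and the rest 405 and 1030, a ratio of 0.393 (0.350–0.442). The first ratio was 0.536 (0.335–0.833) of the second. Among peaks of at least 10 tags the quotient was 0.413, with an interval (0.125–1.08) that includes 1. Within a mark class the clusters also had the lower ratio, but each interval included 1. On H3K27ac the numbers were 15 in shEZH2 cells and 81 in control cells in the clusters (0.185) and 105 and 379 in the rest (0.277), a quotient of 0.668 (0.343–1.23). On H3K27me3 they were 6 and 17 in the clusters (0.353) and 231 and 428 in the rest (0.540), a quotient of 0.654 (0.208–1.77). Peaks on neither mark numbered 6 and 30 in the clusters and 60 and 213 in the rest (0.710, 0.231–1.85). By cluster the ratio was 0.158, 0.189, 0.444 and 0.206 from cluster 1 to cluster 4, with intervals that overlap, and that of cluster 3 (0.1–1.59) includes 1.

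Of the 128 control EZH2 peaks of the clusters, 15 (11.7%, 6.71–18.6) overlapped a shEZH2 peak, against 203 of 1030 (19.7%) in the rest and 23.1% of the whole control list. The difference from the rest was -7.99 points (-13.1 to -0.884). It moved with peak strength. Peaks with a caller's score of 9 or 10 made up 56.2% of the cluster peaks and 35.5% of those in the rest, and 5.56% and 5.19% of them were called again. At scores of 13 to 16 the shares called again were 31.6% of 19 peaks in the clusters and 23.1% of 212 in the rest. Joined over bins of the score, the difference was 1.22 points (-4.19 to 6.63), and with lists cut to equal length it was -0.226. In the other direction, 12 of the 27 shEZH2 peaks (44.4%, 25.5–64.7) had no control peak, against 202 of 405 in the rest (49.9%) and 43.8% of the whole list.

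At the 15 places listed in both groups, tags per kb in shEZH2 cells over control cells had a median log2 ratio of -0.06 (-0.19 to 0.43), with 8 lower and 7 higher. The 203 shared peaks of the rest had a median of -0.36 (-0.47 to -0.26), a difference of 0.30 (0.13–0.80). Without cluster 1 it was 0.338 (0.139–0.872). With cluster 2, 3 or 4 left out, or borders drawn in by 0.2 Mb, the interval ran from negative to positive. The call windows were 151 bp in shEZH2 cells and 183 bp in control cells, so dividing by width raises every ratio. Not divided, the medians were -0.335 in the clusters and -0.635 in the rest, with the same difference of 0.30. This difference moved with the mark. On H3K27ac the medians were -0.09 in the clusters (8 peaks) and -0.09 in the rest (60 peaks). On H3K27me3 all 3 shared peaks of the clusters were lower, with a median of -0.71, and 104 of 119 in the rest, with a median of -0.56. The other shared peaks of the clusters, on neither control mark, had ratios of 0.02, 0.43, 0.50 and 0.89. Only peaks listed in both groups enter, so a control peak with no listed shEZH2 peak has no ratio here.

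The lowest ratio was -1.22 at 19887282–19887464 and the next -1.17 at 57154824–57155006, the pair of strongest control peaks described above. The peaks at 56539008–56539190 (-0.71, H3K27me3), 56915610–56915792 (-0.19, H3K27ac) and 52551953–52552135 (-0.17, H3K27ac) followed. The highest ratio was 0.89 at 57454234–57454416, on neither mark, with 10.3 tags in shEZH2 cells and 6.75 in control cells. The peak at 56879449–56879631 on H3K27ac had 11.7 and 9 tags (0.66). Those at 38484061–38484243 and 58555825–58556007, on neither control mark, had 0.50 and 0.43, and that at 59025386–59025568 on H3K27ac had 0.38. The 3 lowest ratios belonged to the 3 shared peaks with most control tags. Control tags are the denominator of the ratio, and the shEZH2 values there lay near the call threshold. This order is thus partly built in and does not show a larger change at stronger peaks.

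The H3K27ac and H3K27me3 lists of the groups were called with unlike settings, so the groups' numbers and widths are not set against each other, and only the clusters and the rest are compared within the same pair of lists. In shEZH2 cells windows of 1000 bp were joined at a lower tag density, which gave wider regions. Control H3K27ac regions were nearly all listed again in shEZH2 cells, 383 of 395 (97.0%) in the clusters, 98.2% in the rest and 97.0% of the whole list. The 12 that were not had at most 16.6 tags. Of the shEZH2 H3K27ac regions, 63 of 322 in the clusters (19.6%) had no control region, against 682 of 1883 (36.2%) in the rest and 41.0% of the whole list, a difference of -16.7 points (-21.2 to -11.5). For H3K27me3, 141 of 142 control regions were listed again (99.3%), against 97.7% in the rest and 94.1% of the whole list. Of the shEZH2 H3K27me3 regions, 112 of 168 in the clusters (66.7%) had no control region, against 53.9% in the rest and 63.2% of the whole list. That difference of 12.7 points (5.05–19.7) was 6.23 (-2.82 to 14.7) without cluster 1, in which the share was 84.4%. Where at least 50% of the region had to be covered it was 0.501 (-2.87 to 1.86). At that setting 98.2% of the regions in the clusters and 97.7% in the rest counted as without a control region. Control regions were called narrower, so this setting could hardly show a difference.

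The 30 control EZH2 peaks on neither control mark were compared with the broader shEZH2 mark lists. There 16 lay on H3K27me3 alone, 2 on H3K27ac alone, 2 on both and 10 on neither. Of all control EZH2 peaks of the clusters, 23.4% were on neither control mark and 7.81% on neither shEZH2 mark. In the rest these shares were 20.7% and 7.77%, and on the other autosomes 23.9% and 9.27%. The fall was therefore not particular to the clusters. The lower threshold of these lists moves with this result, and its part was not tested.

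The H3K27ac region of the clusters with most tags among those in shEZH2 cells alone was 37807709–37810081 in cluster 2, with 168.2 tags (151.6–186.2) or 70.9 per kb. By tags it ranked 8 of 22496 such regions on the autosomes away from their longest unlisted stretches. A control EZH2 peak of 7.50 tags lay in it and no shEZH2 peak did. A control H3K27ac region of 145.7 tags began 0.773 kb further on, at 37810854. The second, 36761896–36771061 with 108.2 tags, lay on one of the wide H3K27me3 regions described next. The other 3 named by the same rule had between 32.0 and 50.5 tags. Of H3K27me3 regions listed in shEZH2 cells alone the first 5 had between 37.7 and 45.7 tags.

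A pair of H3K27me3 regions of cluster 2 stood apart from all other members, counted here as 2 regions of 168 in shEZH2 cells and of 142 in control cells. The first had 5806.5 tags in shEZH2 cells (36754694–36801280) and 5194.2 in control cells (36759208–36800888), and 124.6 tags per kb in both. The second had 5159.8 tags in shEZH2 cells (37759359–37798389) and 4684.1 in control cells (37759484–37796316), or 132.2 and 127.2 per kb. The next member of the control list, 59049671–59052735 in cluster 4, had 89.2 tags, and the median member 6.91. Away from the longest unlisted stretch of each chromosome, the pair ranked 1 and 3 by tags among all autosomal H3K27me3 regions of control cells. Together they held 64.8% of the H3K27me3 tags listed in the clusters in shEZH2 cells and 87.6% in control cells. They covered 41680 and 36832 bp in control cells, and the share of the clusters covered by H3K27me3 in control cells was 1.15% with them and 0.446% without them, against 3.55% in the rest.

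Neither wide region held an EZH2 peak in either list. The nearest EZH2 peak was 128.2 kb from the first in shEZH2 cells and 11 kb in control cells, and 295.0 kb from the second in shEZH2 cells and 12.5 kb in control cells. Of 31 autosomal H3K27me3 regions of at least 10 kb in control cells, away from the same stretches, 17 (54.8%) held a control EZH2 peak. The other 14 did not, the pair among them. Of these 31, 11 had over 100 tags per kb, and the pair were the only 2 of the 11 without an EZH2 peak. That limit was not planned and lies below the pair's own values, so the last count depends on it. H3K27ac was listed on them too, in 10 regions on the first and 13 on the second in shEZH2 cells, at 11.5 and 10.7 tags per kb, and in 5 and 3 short regions in control cells. Repeats, copy number and background at these places were not tested, since there was no input library. Without every region on the wide pair, the H3K27ac density ratio was 0.642 in shEZH2 cells and 0.753 in control cells, that of H3K27me3 was 0.279 and 0.167, and the difference in H3K27ac regions listed in shEZH2 cells alone was -20.2 points.

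**Figure D5:**
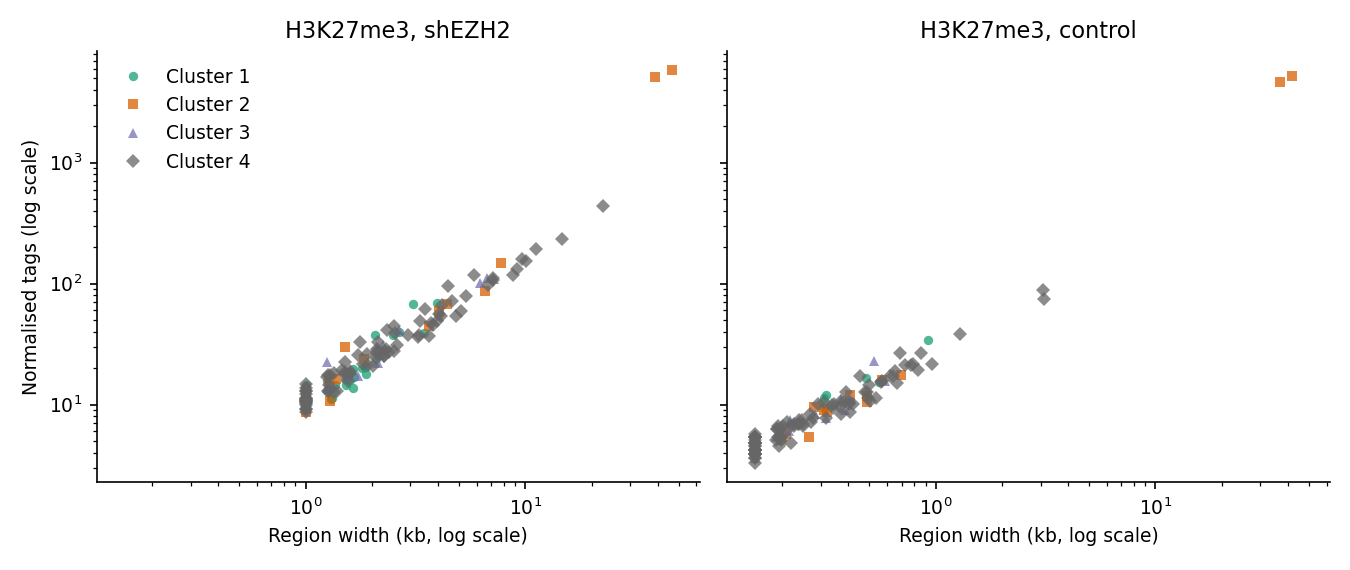
Width (kb) and normalised tags of each H3K27me3 region of the clusters, both on log axes, in shEZH2 (left) and control cells (right); symbols give the cluster. The wide pair of cluster 2 has 4684.1 tags or more in both panels, while the next control region has 89.2.

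Elsewhere in the clusters H3K27me3 was listed mostly in cluster 4. It held 85 of the 168 regions in shEZH2 cells and 99 of the 142 in control cells, or 30.4 and 35.4 per Mb. The widest of its shEZH2 regions, 56535629–56558234 with 440.9 tags, spanned the control regions 56548505–56551613 of 74.5 tags and 56538144–56539441 of 38.2 tags, and carried EZH2 in both lists, 7.58 tags in shEZH2 cells and 15 in control cells at its strongest peak. The adjoining 56560779–56575414 had 235.9 tags, with a control EZH2 peak of 7.50 tags. Cluster 1 had 45 regions in shEZH2 cells and 8 in control cells. Its strongest control region, 24154466–24155387, had 34.5 tags and carried EZH2 of 8.96 tags in shEZH2 cells and 10.5 in control cells, although these peaks did not overlap. The strongest control region of cluster 3, 53811598–53812124, had 22.8 tags and no EZH2.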

How the data were processed

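ChIP-seq of EZH2, H3K27ac and H3K27me3 in LNCaP gave 1 library per group. Samples were grouped by their titles, and the other 3 of the 9 samples were not analysed here. The submitters' processing notes name BWA 0.6.1, hg19 and HOMER 4.1. Per the file headers, the authors called each library alone, without input. EZH2 peaks were windows of 151 bp (shEZH2) or 183 bp (control) at a false discovery rate of 0.001 and at least 4-fold the surrounding 10 kb. Histone regions were joined from windows of 1000 bp at a Poisson p of 0.001 in shEZH2 cells, and of 150 bp at a false discovery rate of 0.001 in control cells.

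The deposited signal is tags per region, scaled by the authors to 10000000 per library. The deposited score ranked or binned peaks within a list. The deposited ratio, a fold over local background, describes EZH2 peaks; the deposited clonal fold, the focus fraction and the local p-value were not used for any result.

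Overlap meant at least 1 shared bp. Intervals are exact Poisson for densities, exact binomial for their ratios, Clopper-Pearson for shares, Newcombe for differences, exact conditional for quotients of ratios and order-statistic for medians; the interval over score bins used Mantel-Haenszel weights and a normal approximation. No p-value was computed. The rest of chromosome 19 left out its longest unlisted stretch of 3.1 Mb. The code for densities and overlap shares was tested on simulated lists. Overlap counts were compared with those of bedtools on the control EZH2 and H3K27me3 lists. The interval code was not tested.

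Members and lists were chosen with earlier results of these data known. Named regions are those with most tags in each list and in each cluster, the 5 with most tags listed in 1 group, the windows of 100 kb with most EZH2 peaks, and the 5 highest and 5 lowest ratios at shared EZH2 peaks; some are given by range. Score bins, minimum tags of 10, H3K27ac peaks alone and leaving out the wide H3K27me3 pair were chosen after seeing the data. The limits of 10 kb and 100 tags per kb for wide H3K27me3 regions were not planned either. The software was scipy 1.17.1, numpy 2.4.6 and pandas 2.3.3 under Python 3.11.15, with matplotlib 3.10.9 for plots.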

Additional observations from a re-analysis of the deposited data

How the results depend on the processing

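Of 128 alternative values for 13 results, 95 stayed within the main interval, 27 lay outside it in the same direction or without a call, and 6 changed direction. With borders drawn in by 0.2 Mb the H3K27me3 density ratio was 0.234 in shEZH2 and 0.102 in control cells, and the excess of H3K27me3 regions listed in shEZH2 cells alone 20.9 points. Against all other autosomes the ratios were 0.745 and 1.43 for EZH2, 1.40 and 1.77 for H3K27ac, and 0.421 and 0.417 for H3K27me3 in shEZH2 and control cells, and the differences in regions listed in shEZH2 cells alone were -21.8 (H3K27ac) and 3.27 (H3K27me3). With 1 cluster left out, the ratio ran from 0.187 to 0.409 in shEZH2 and 0.341 to 0.730 in control cells for EZH2, 0.591 to 0.949 and 0.622 to 1.04 for H3K27ac, and 0.187 to 0.353 and 0.0688 to 0.274 for H3K27me3. The excess of H3K27me3 regions listed in shEZH2 cells alone then ran from 6.23 to 18.4 points. With only the 50% of regions of highest score kept, the ratio was 0.129 (EZH2, shEZH2), 0.280 (EZH2, control) and 0.790 (H3K27ac, shEZH2), the differences in EZH2 control peaks were -35.0 points on H3K27me3 and 36.3 on H3K27ac, and that in H3K27ac listed in shEZH2 cells alone -11.1. Covering at least 50% of a region gave 0.501 for H3K27me3 in shEZH2 cells alone, from shares of 98.2% and 97.7% that leave little room for a difference. The difference in EZH2 peaks called again was -0.226 with lists of equal length and 1.22 within score bins. With at least 15 tags the quotient of EZH2 peak numbers was 0 (0–4.08), from 0 peaks of 5. It was 0.413 (0.125–1.08) with at least 10 tags and 0.404 (0.00846–3.69) at the same minimum per kb. On H3K27ac alone the difference in the median log2 ratio was -0.00622. The cause of these shifts was not tested. Shared pairs with a mean of at least 15 tags gave no value in the clusters. Leaving out 2 Mb on either side of the longest unlisted stretch kept all 13 results within their intervals. No paired analysis was possible because each group had 1 library. The small number of EZH2 peaks, 27 in shEZH2 cells, sets the width of the intervals around the EZH2 results.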
